A study of Mus musculus with 3 samples.

Results

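Methionine is read by a pair of tRNAs with the same anticodon, CAT in the gene. The initiator tRNA, named iMet-CAT in the deposited tables, is brought by the factor eIF2 to the small ribosomal subunit and reads the start codon. The elongator tRNA, named Met-CAT, is delivered by eEF1A and reads methionine codons inside the coding sequence. Fragments of tRNA, cut mainly in the anticodon loop, are abundant in the male reproductive tract, and in the epididymis, the duct in which sperm mature, vesicles can carry them to sperm. ALKBH3 is an enzyme known to take methyl marks off adenosine and cytidine, among other places in tRNA.

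Every gene whose name starts with tRNA-iMet-CAT or tRNA-Met-CAT was taken, which gave 19 of the 446 nuclear tRNA genes counted, 10 of the initiator and 9 of the elongator. The data are small RNA libraries from mouse epididymis, 1 of the wild type genotype and 2 of the genotype Alkbh3-/-, none of them treated. The latter pair is named A and B, in the order of their columns, because the column names could not be tied to the replicate numbers in the labels. The labels give no age, strain or allele, nor whether A and B are separate animals. The p-values thus reflect the spread among these samples alone, which may be technical. The wild type column alone carries the prefix B6, so whether the genotypes share a strain background is not known here. The tables hold tRNA genes and totals of 5 RNA classes, and neither the loss of Alkbh3 nor the tissue label was checked against an mRNA.

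In wild type, library A and library B the 5 classes summed to 15107055, 15411457 and 21169908 reads, and levels are given as RPM, reads scaled to an equal sum of those classes in each library. The tRNA class took 44.7%, 36.5% and 38.1% of it, and the miRNA class 15.1%, 24.8% and 30.7%. The wild type library thus differed in make-up from libraries A and B, which also differed from each other. With a sole wild type library, this shift cannot be tied to genotype. The part of this shift in the methionine values was not tested beyond the rescaled fits given with them. In whole-tissue RNA, fewer cells of a type and less RNA per cell cannot be told apart.

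Initiator and elongator fragments were present at similar, low levels. The initiator had 1306 (wild type), 1008 (A) and 1908 (B) reads, or 86.4, 65.4 and 90.1 RPM. The elongator had 1276, 883 and 1703 reads, or 84.5, 57.3 and 80.4 RPM. For both tRNAs library A was the lowest and library B lay close to wild type, so the wild type value of the initiator fell between the Alkbh3-/- values and that of the elongator just above them. Both were a small part of the tRNA fragment reads, the initiator with 0.0325%, 0.0302% and 0.0400% of the reads in the tRNA gene table and the elongator with 0.0318%, 0.0264% and 0.0357%. These are shares of small RNA reads and do not measure the whole tRNAs.

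Neither methionine tRNA passed the test of genotype. Against 86.4 RPM in wild type, the initiator averaged 77.8 ± 17.5 RPM (SD, n = 2) in Alkbh3-/-, and its log2 fold change was -0.12 (SE 0.28), with an adjusted p = 0.79 from edgeR. The elongator averaged 68.9 ± 16.4 RPM (SD, n = 2) against 84.5 RPM, and its log2 fold change was -0.26 (SE 0.27), with an adjusted p = 0.60 from edgeR. Of the methionine pair 0 passed, and 0 had an unadjusted p under 0.05, with edgeR and with DESeq2, while 23.9% of all 46 isoacceptors tested passed with edgeR and 6.52% with DESeq2, and 32.6% (edgeR) and 19.6% (DESeq2) had an unadjusted p under 0.05. An isoacceptor is the set of tRNA genes with one amino acid and one anticodon, with the initiator and the elongator of methionine kept apart. The gap between libraries A and B, 0.46 for the initiator and 0.49 for the elongator on the log2 scale, was larger than either genotype difference, and a missed threshold does not show equal levels. The median log2 fold change over all isoacceptors was -0.26, the value of the elongator. The sign of both differences depended on the scaling, and with the sums of the tRNA gene table as library sizes they were 0.14 and 0.01.

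In mean RPM over the 3 libraries the initiator ranked 22 and the elongator 23 of 56 isoacceptors. The next above were Leu-TAG (78.7, 86.2 and 89.5 RPM) and Pro-CGG (90.4, 129.0 and 90.3 RPM). The next below were Leu-AAG (45.8, 71.0 and 50.6 RPM) and Arg-CCT (61.6, 44.1 and 45.3 RPM). The ranges over libraries of Leu-TAG, the initiator and the elongator overlapped each other, and that of Leu-AAG overlapped both methionine ranges, so their order is not set beyond that spread. The lowest Pro-CGG value lay just above the highest initiator value, and the Arg-CCT range overlapped that of the elongator only. None of these neighbours passed either (edgeR adjusted p from 0.11 to 0.76).

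The isoleucine tRNAs share the AUN codon box with methionine, and tryptophan is the other amino acid with a sole codon. Of 3 such relatives tested, 2 passed with a lower value in Alkbh3-/- in the main fit and 1 did not pass. Ile-AAT, the main isoleucine tRNA, stood at 36.1, 23.3 and 18.9 RPM in wild type, A and B, with a log2 fold change of -0.80 (SE 0.19; adjusted p = 0.0013 with edgeR). Trp-CCA stood at 28.0, 15.6 and 17.4 RPM, with a log2 fold change of -0.75 (SE 0.21; adjusted p = 0.0051 with edgeR). In both the wild type value lay above those of libraries A and B. These calls depended on the processing, since Ile-AAT passed in 4 and Trp-CCA in 6 of 9 settings with a test. The 4 for Ile-AAT were the main fit and near-copies of it (other count filters, or the methionine tRNAs summed), with its value unchanged at -0.80. It passed with no change of scaling, tool or deposited count. Trp-CCA passed in the same 4 and also with TMM scaling and with a second deposited count. With DESeq2 their values were -0.44 and -0.44 (adjusted p = 0.48 for each). Ile-GAT had 4, 7 and 4 reads, too few to show a difference (log2 fold change 0.18, SE 3.58), and Ile-TAT, with 1 wild type read, was not tested.

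The balance between the methionine tRNAs needs no scaling, since both are counted in one library. The initiator had 1.02, 1.14 and 1.12 reads per elongator read in wild type, A and B, a mean of 1.13 ± 0.0150 (SD, n = 2) in Alkbh3-/-. An SD of 2 values is itself uncertain and can fall below the counting error, which was not computed for this ratio. In the fragment sheets, a second deposited count of the same libraries with read lengths, the ratio was 1.05, 1.25 and 1.16. Both Alkbh3-/- values lay above wild type in both counts, but no test was made, since the smallest p of an exact permutation test is 0.33 with 1 library against 2.

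The genes lie in build mm10 mostly on chromosome 13, where 11 of the 19, 7 of the initiator and 4 of the elongator, fall between positions 21167604 and 23530419. By the GENCODE M21 annotation, 15 of the 19 are intergenic and 4 sit in introns with no exon overlap, and 16 coincide with a tRNA gene of RefSeq. In gene names the first number after the anticodon stands for a distinct sequence and the second for a copy of it. By this naming, copies with the same first number are identical, so reads from within them cannot be told apart. Reads can also be shared among near-identical sequences. How such reads were assigned is not known here, so the value of a single copy is uncertain. The initiator genes are 72 nt long and the elongator genes 73 nt, except Met-CAT-7-1 with 72.

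The initiator reads came almost wholly from its number 1 sequence. The 7 copies iMet-CAT-1-1 to 1-7 held 91.4%, 89.8% and 90.04% of the initiator reads in wild type, A and B. Each carried 137 to 222 reads in wild type, 117 to 165 in A and 208 to 320 in B, an even spread among copies as the reads were assigned. The highest was iMet-CAT-1-1 (chromosome 3, 90475860 to 90475931, minus strand, between genes), with 222, 165 and 320 reads, and the other 6 lie on chromosome 13. Of these, iMet-CAT-1-7 (23530348 to 23530419, minus strand) lies in an intron of the lincRNA Gm11335 on the same strand. Outside sequence 1, iMet-CAT-3-1 (chromosome 13, 21907111 to 21907182, plus strand, between genes) had 86, 91 and 165 reads and iMet-CAT-2-1 (chromosome 15) 26, 12 and 25. iMet-CAT-4-1 on chromosome X had 0 reads in all 3 libraries of the gene table, which allows up to 0.199, 0.195 and 0.142 RPM, and 1 wild type read in the fragment sheets.

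The elongator reads were spread over more sequences, with 1 copy standing above the others in the gene table. Met-CAT-1-2 (chromosome 15, 57975983 to 57976055, minus strand, between genes) had 444, 280 and 559 reads. Met-CAT-1-1 (chromosome 8, 121579229 to 121579301, minus strand, in an intron of the protein-coding gene Gm20388 on the opposite strand) had 214, 156 and 344. Together these copies of sequence 1 held 51.6%, 49.4% and 53.0% of the elongator reads. In the gene table Met-CAT-1-2 had 2.07, 1.79 and 1.63 times the reads of Met-CAT-1-1, but in the fragment sheets 1.10, 0.974 and 0.941 times, so the lead of this copy depended on which deposited count was used.

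The remaining elongator sequences were lower and close to each other. Met-CAT-2-1 had 121, 90 and 164 reads, Met-CAT-2-2 had 123, 100 and 158, and Met-CAT-3-1 had 119, 72 and 149, and these 3 genes lie within the chromosome 13 stretch. Met-CAT-6-1 (chromosome 5, 109723479 to 109723551, minus strand, between genes) had 105, 71 and 143. Met-CAT-4-1, in an intron of the antisense RNA gene 4930586N03Rik on the same strand, had 78, 59 and 97, and Met-CAT-5-1 (chromosome 15) 72, 54 and 89. Met-CAT-7-1, in an intron of the lincRNA Gm26779 on chromosome 5 and the same strand, had 1 read in library A and 0 in the other libraries. Between libraries A and B the 17 copies with 10 or more reads kept the same proportions to within counting error (chi-square of 0.526 for each degree of freedom, reads taken as independent). The way reads were shared among identical copies may enter this value, and its part was not tested. Over all isoacceptors these libraries differed well beyond counting error (255). That value rests on far more reads, and chi-square grows with read number, so it cannot be set against 0.526. Because of the isoacceptor difference, libraries A and B were not taken for duplicates of 1 library, which does not show that they are separate animals.

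**Figure D1:**
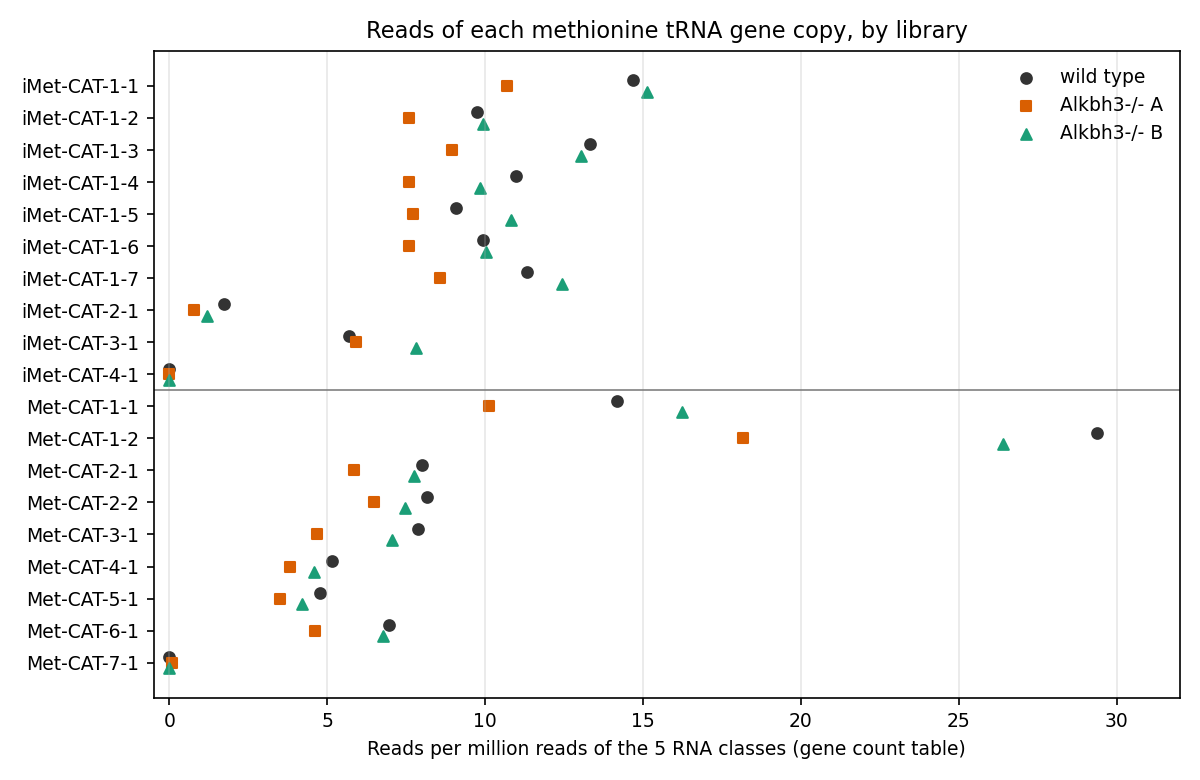
Reads of each methionine tRNA gene copy in the gene count table, in RPM, with 1 point per library and initiator copies above the line. Library A lies left of wild type in all 17 copies with 10 or more reads except iMet-CAT-3-1, and Met-CAT-1-2 stands to the right of all other copies in each library.

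No copy passed the test of genotype. Of the 17 copies tested (10 or more reads over the 3 libraries), 0 passed with edgeR or DESeq2 and 0 had an unadjusted p under 0.05 with either. Of all 367 tRNA genes tested, 9.81% passed with edgeR and 4.9% with DESeq2, and 16.6% (edgeR) and 10.1% (DESeq2) had an unadjusted p under 0.05. The log2 fold changes ran from -0.76 in iMet-CAT-2-1, the copy with fewest reads, to 0.30 in iMet-CAT-3-1, and the lowest edgeR adjusted p was 0.74. Among initiator copies 2 of 9 were above 0 (median -0.14), and among elongator copies 0 of 8 (median -0.26), beside a median of -0.15 over all genes, but with the sums of the gene table as library sizes 7 of 9 and 4 of 8 were above 0. The copies above 0 were iMet-CAT-3-1 (0.30, SE 0.28) and iMet-CAT-1-5 (0.07, SE 0.31), both within about 1 SE of 0. The highest copy, Met-CAT-1-2, had -0.36 (SE 0.39).

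The sheets split the reads of each gene into a first and a second end class, which no source at hand defines, and here the methionine tRNAs stood far apart. Of the elongator reads the second class held 74.0% in wild type (1353 of 1828, exact Clopper-Pearson 95% interval 71.9 to 76.0%), 86.1% in A (84.1 to 87.9%) and 82.1% in B (80.6 to 83.5%). It held 1.04%, 0.907% and 0.749% of the initiator reads (20 of 1921, 15 of 1653 and 23 of 3070). In each library the elongator was thus mainly a second-class and the initiator almost wholly a first-class tRNA. These intervals cover counting error only, since PCR copies are not independent molecules.

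Among all tRNA genes the second class held 0.377%, 0.414% and 0.418% of the reads, so the elongator went against the bulk of the reads. Most of those reads were of Gly-GCC (4694332 of 6453452 in wild type, 0.00584% second class). By the mean share the elongator ranked 4 of 40 isoacceptors with 100 or more reads in each library, and the initiator 33. A high share was not particular to the elongator. Thr-AGT (97.4%), Ala-TGC (92.0%) and Trp-CCA (88.3%) had higher mean shares, and Arg-TCG (80.6%) was close below. In single libraries the elongator ranked 7 in wild type, 4 in A and 3 in B. In wild type Arg-TCG (82.9%), Asn-GTT (81.3%) and Arg-ACG (77.4%) also lay above it. At its low level the elongator still supplied 5.57%, 5.19% and 6.82% of all second-class reads. The split held copy by copy: over the 8 elongator copies with 50 or more reads the second-class share was 69.03 to 82.1% in wild type, 82.03 to 90.2% in A and 73.8 to 90.8% in B. Over the 8 such initiator copies it was 0 to 1.52%, 0 to 1.93% and 0 to 1.29%. Below that depth, iMet-CAT-2-1 had 2 of 10, 2 of 5 and 3 of 15 reads in the second class, higher shares on too few reads to judge.

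**Figure D2:**
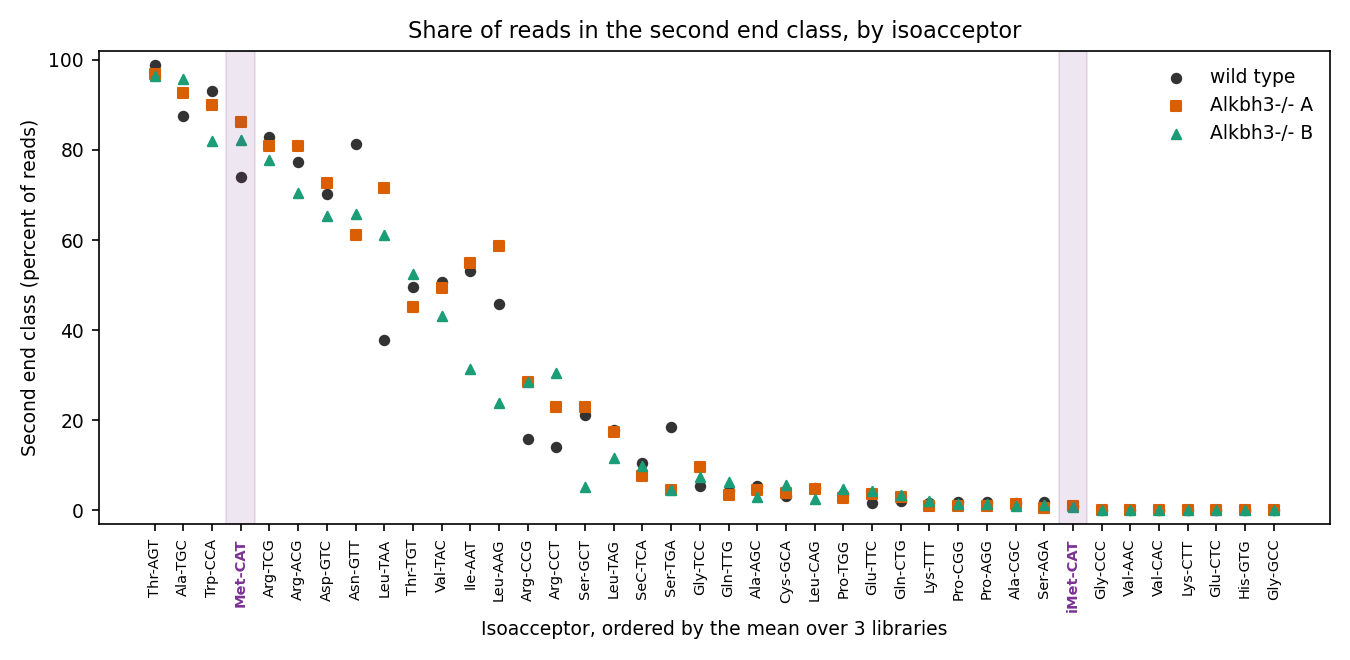
Share of the reads of each isoacceptor in the second end class, in percent, for 40 isoacceptors with at least 100 fragment reads per library, ordered by the mean, with 1 point per library. By the mean the elongator (Met-CAT, shaded) ranks 4 with 74.0 to 86.1% and the initiator (iMet-CAT, shaded) ranks 33 with 0.749 to 1.04%. In wild type alone the elongator ranks 7.

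The end class of elongator reads followed their length. Of the elongator reads of 50 nt or shorter, 1353 of 1359, 1138 of 1143 and 2169 of 2179 (wild type, A and B) were second class, or 99.6%, 99.6% and 99.5%. Of those above 50 nt, 0 of 469, 0 of 179 and 0 of 463 were, which allows shares of up to 0.640%, 1.68% and 0.648%. The higher second-class share in the Alkbh3-/- libraries was therefore the counterpart of a lower share of reads above 50 nt, and within 50 nt the genotypes differed by -0.00668 percentage points. The initiator showed no such division, with 0 of 464, 0 of 219 and 1 of 551 second-class reads above 50 nt and 20 of 1457, 15 of 1434 and 22 of 2519 at 50 nt or shorter.

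Fragment lengths fell into separate groups in each tRNA. The initiator reads formed peaks at 30 to 31 nt, at 39 to 40 nt and at 53 to 55 nt. In wild type its 31-nt first-class fragment had 560 reads, the 30-nt one 197, the 40-nt one 298 and the 53-nt one 157. The elongator reads formed a broad group from 30 to 35 nt with its top at 33 nt, a small one at 38 nt, all second class, and a sharp first-class peak at 54 nt. In wild type its 33-nt fragment had 394 reads and the 54-nt one 381. The sheets hold no sequences, so no fragment was placed on the tRNA molecule.

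**Figure D3:**
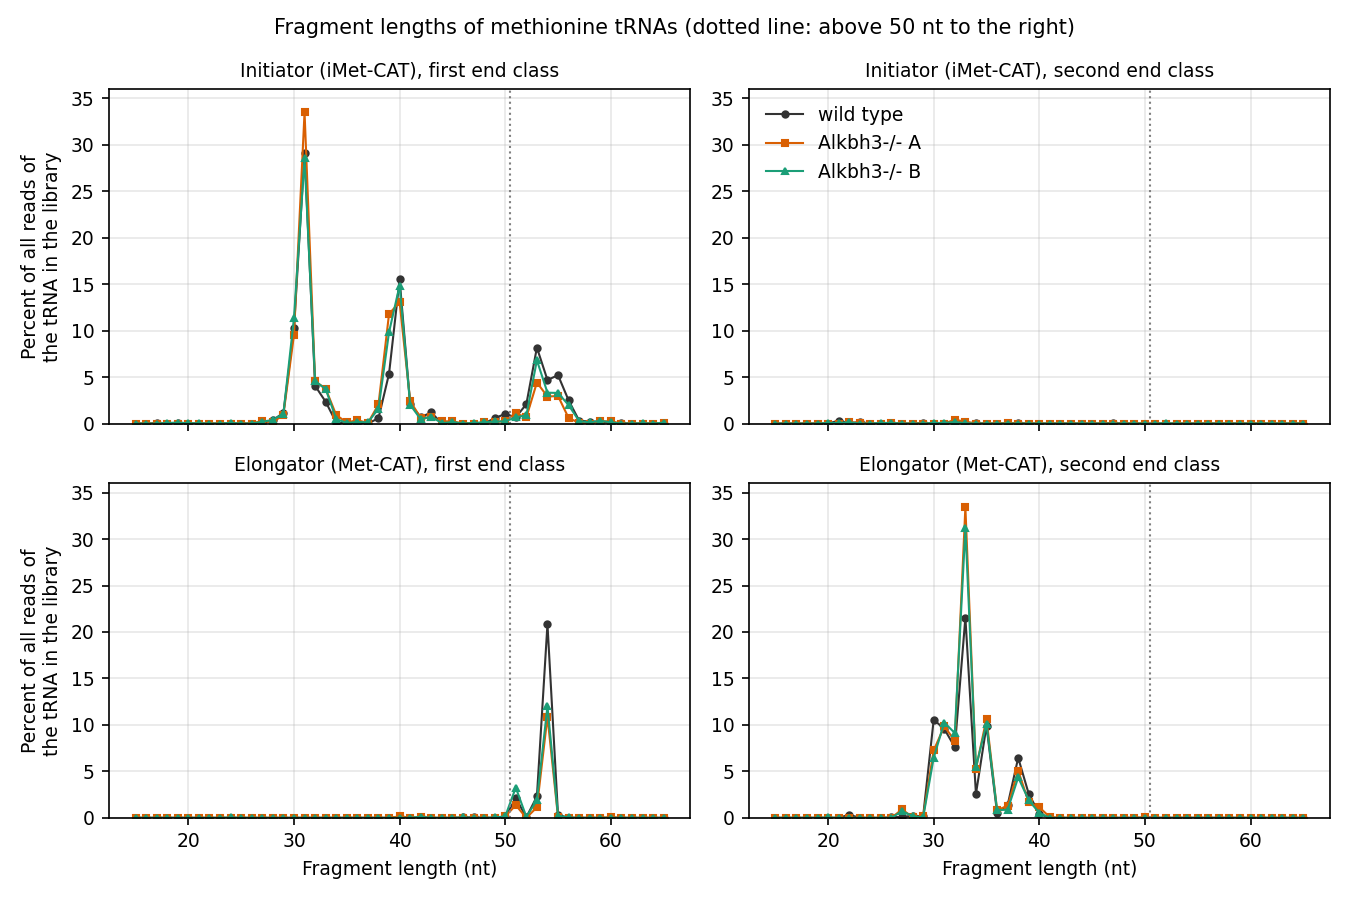
Length profile of initiator (top) and elongator (bottom) reads in the first (left) and second (right) end class, as percent of all reads of that tRNA in the library against fragment length in nt, with 1 line per library. The initiator peaks at 31, 40 and 53 nt lie in the first class, while the elongator has its reads up to 50 nt in the second class and a first-class peak at 54 nt that is highest in wild type.

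Reads above 50 nt, outside the 15 to 50 nt range that the labels say was excised from the gel, took a large share of both tRNAs. In the initiator they were 24.2%, 13.2% and 17.9% of the reads in wild type, A and B, and 15.6 ± 3.32% (SD, n = 2) in Alkbh3-/-. In the elongator they were 25.7%, 13.5% and 17.5%, and 15.5 ± 2.82% (SD, n = 2). In both tRNAs the wild type share lay above both Alkbh3-/- shares, by 6.21 points or more in the initiator and 8.13 or more in the elongator, against gaps of 4.70 and 3.98 between libraries A and B. No test was made, for want of wild type replicates. Where the gel was cut in each library is not known here, and its part in these shares was not tested.

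Among 24 isoacceptors whose fragment reads numbered 1000 or more in every library, only Arg-CCT had a higher wild type share above 50 nt (82.3%, with 74.2% and 65.2% in libraries A and B) than the elongator and the initiator, which ranked 2 and 3. Of those 24, 10 (41.7%) had a lower share in both Alkbh3-/- libraries than in wild type, 10 a higher one in both and 4 a mixed pattern. The next by wild type share were SeC-TCA, also lower in both (14.6%, 11.1% and 10.9%), and Gln-CTG, higher in both (13.1%, 14.0% and 16.4%). Copy by copy it was lower in both Alkbh3-/- libraries in the 7 number 1 copies of the initiator and in 8 of 8 elongator copies with 50 or more reads, beside 31.1% of 244 tRNA genes with that depth. These copies may share reads and make up the sums above, so they add no separate evidence. In iMet-CAT-3-1 too few reads were above 50 nt to show a direction (1.31%, 0 of 171 and 0.667%). In wild type the share ran across elongator copies from 17.4% in Met-CAT-6-1 (9.80% and 13.4% in A and B) to 30.6% in Met-CAT-5-1 (16.4% and 26.2%).

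The shorter length groups took up the difference in different ways. In the initiator the 30 to 33 nt share was 46.1%, 51.97% and 48.5%, and the 37 to 49 nt share 26.2%, 31.5% and 30.3%, both higher in the Alkbh3-/- libraries. In the elongator the 30 to 33 nt share was 49.3%, 58.9% and 57.04% and the 34 to 36 nt share 13.02%, 16.8% and 16.4%, while the 37 to 49 nt share was 11.1%, 9.46% and 7.83%. At 37 to 49 nt both Alkbh3-/- libraries thus lay above wild type in the initiator and below it in the elongator. Shares of 1 total are not independent of each other.

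Of 30 methionine fragments tested, each the reads of one length and end class with 10 or more reads in each library (17 initiator and 13 elongator), 0 passed with edgeR or DESeq2. The share that passed over all 572 fragments tested was 2.27% with edgeR and 5.59% with DESeq2, and 10.1% had an unadjusted edgeR p under 0.05. Unadjusted, 0 of the 30 had a p under 0.05 with edgeR and 2 with DESeq2, the 54-nt elongator fragment and the 39-nt initiator fragment, beside 11.7% of all fragments with DESeq2. The log2 fold changes ran from -1.35 to 1.63 with SEs of 0.55 to 1.17, and in the main edgeR fit the lowest adjusted p was 0.52. The medians were -0.13 in the initiator and -0.12 in the elongator, beside -0.03 over all fragments.

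The 54-nt elongator fragment of the first class came nearest to the threshold. It had 381, 144 and 317 reads in wild type, A and B, or 25.2, 9.34 and 15.0 RPM, so wild type lay above both Alkbh3-/- libraries. Its log2 fold change was -1.03 (SE 0.55), with an adjusted p = 0.52 from edgeR. The 33-nt elongator fragment of the second class went the other way, at 26.1, 28.7 and 38.9 RPM, with wild type lowest (log2 fold change 0.38, SE 0.58, edgeR adjusted p = 0.90). The elongator fragments of 35 nt (11.98, 9.15 and 12.7 RPM), 31 nt (11.6, 8.44 and 12.8 RPM) and 32 nt (9.20, 7.14 and 11.4 RPM), all second class, each had wild type between the Alkbh3-/- libraries, with log2 fold changes of -0.12, -0.10 and 0.04.

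Among the initiator fragments the 39-nt one had the largest difference of the 5 most abundant. It had 103, 195 and 302 reads, or 6.82, 12.7 and 14.3 RPM, with wild type below both Alkbh3-/- libraries (log2 fold change 0.99, SE 0.64, edgeR adjusted p = 0.63). In 3 others wild type lay between the Alkbh3-/- libraries. The 31-nt fragment stood at 37.1, 35.9 and 41.4 RPM, the 40-nt one at 19.7, 14.0 and 21.5 RPM and the 30-nt one at 13.04, 10.3 and 16.5 RPM (log2 fold changes 0.06, -0.13 and 0.06). The 53-nt fragment, at 10.4, 4.74 and 9.87 RPM, had wild type above both (log2 fold change -0.46, SE 0.59), but library B was close to it and without library A the value was -0.075. Of the tested fragments above 50 nt, 5 of 6 of the initiator and 2 of 3 of the elongator had values below 0, as they did with TMM, the sums of the sheets or DESeq2, none past the threshold. The exceptions were the 51-nt ones, at 0.31 (SE 1.07) in the initiator and 0.11 (SE 0.75) in the elongator.

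**Figure D4:**
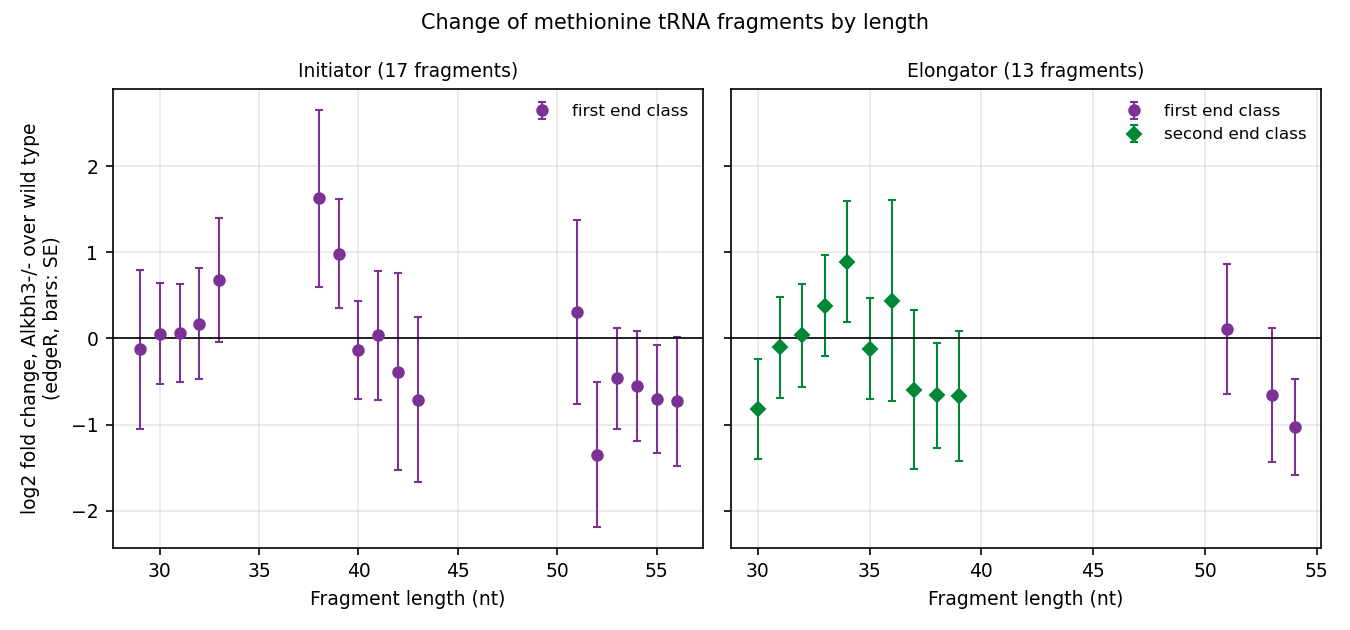
Log2 fold change of each tested methionine fragment, Alkbh3-/- over wild type, against fragment length in nt, with bars of 1 SE from edgeR. None of the 30 passed the test, and of the 9 fragments above 50 nt the 2 of 51 nt lie above 0 and the other 7 below it, at -1.35 to -0.46.

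Within the peaks, the ratios of some lengths differed between wild type and both Alkbh3-/- libraries, which was noticed after the values were seen. For each 30-nt elongator fragment of the second class there were 2.04, 4.60 and 4.82 fragments of 33 nt in wild type, A and B, or 4.71 ± 0.152 (SD, n = 2) in Alkbh3-/-. This ratio was higher in both Alkbh3-/- libraries in 57.1% of 7 isoacceptors with 10 or more such 30-nt reads in each library, the elongator included. For each 40-nt initiator fragment of the first class there were 0.346, 0.903 and 0.662 fragments of 39 nt in wild type, A and B, or 0.783 ± 0.170 (SD, n = 2). It was higher in both Alkbh3-/- libraries in 18.2% of 11 isoacceptors with 10 or more such 40-nt reads in each, the initiator included. The ratios need no scaling between libraries, and no test was made on them and no counting interval computed. The 30-nt elongator reads were 193, 96 and 171 in wild type, A and B, so an SD of 2 values can understate the error.

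The elongator sequences differed in which fragments they gave, in each library alike. Sequence 1 (Met-CAT-1-1 and 1-2) gave almost no 30-nt second-class fragment, with 0.689% of its reads in wild type, 0 of 525 in A, which allows up to 0.571%, and 1.18% in B. The 6 copies of sequences 2 to 6 gave 12.5 to 23.0%, 8.45 to 16.3% and 8.53 to 13.9%, with no overlap. Sequence 1 held instead 11.2%, 10.1% and 7.41% at 38 nt. At 38 nt sequence 2 had 8.61%, 3.73% and 4.74%, and the single copies of sequences 3 to 6 had 0 to 3 reads each.

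The 51-nt first-class fragment was likewise mainly one of sequence 1, at 4.68%, 2.86% and 6.06% of its reads, with 0 to 4 reads in each other copy. Met-CAT-6-1 had the highest 33-nt share, 40.4%, 43.1% and 43.0%, and sequence 2 the highest 35-nt share of these groups, 14.4%, 18.0% and 18.2%. The initiator was more uniform, with 1 exception at the long lengths. Fragments of 52 to 56 nt made up 24.6%, 12.8% and 18.0% of the reads of the 7 number 1 copies. In iMet-CAT-3-1 they were 0 of 153, 0 of 171 and 2 of 300 reads, which allows up to 1.96% in wild type and 1.75% in A and equals 0.667% in B. Its 31-nt first-class share was 37.3%, 38.6% and 35% (105 of 300 reads), against 24.7 to 35.2%, 28.5 to 38.5% and 25.2 to 30.2% in the number 1 copies. The near lack of 52 to 56 nt reads by itself raises the other shares of iMet-CAT-3-1, so its 31-nt share is not a separate difference. These profiles were compared after the values were seen and carry no test.

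**Figure D5:**
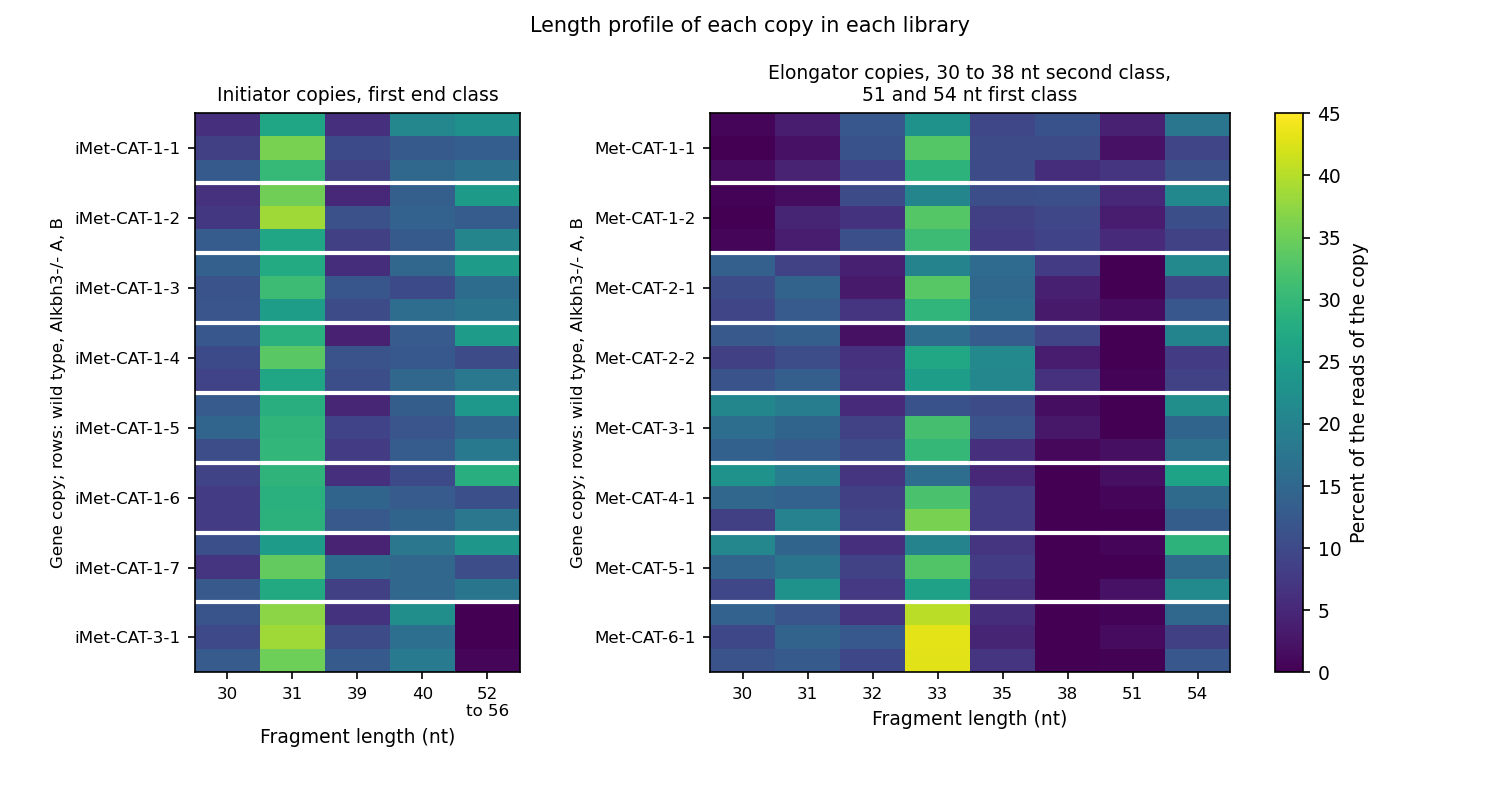
Share of the reads of each copy at the main fragment lengths, in percent by colour, with 3 rows per copy (wild type, Alkbh3-/- A, Alkbh3-/- B) and lengths in nt across. Met-CAT-1-1 and 1-2 are dark at 30 nt and lighter at 38 and 51 nt than Met-CAT-3-1 to 6-1, and iMet-CAT-3-1 is dark at 52 to 56 nt, where the 7 number 1 copies hold 10.5 to 28.4%.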

How the data were processed

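Per the labels' protocols, 100 μg of total RNA was run on a 15% TBE-urea gel, the 15 to 50 nt range was cut out, and a commercial kit served for the libraries. The authors deposited raw read counts per RNA class and per tRNA gene, and 1 sheet per library with raw counts by fragment length in 2 unnamed end classes (the other values of the sheets, as deposited, are lists of length and reads). The submitters' processing notes name cutadapt and mm10, with no version. How reads were aligned, counted and shared among matching genes, and which tRNA annotation served, are points not given in the sources used here. No tRNA sequence was used here, nor were 6 columns with sums of the end classes. The tRNA gene table summed to 59.4%, 59.4% and 59.1% of the tRNA class, and the sheets to 95.5%, 94.1% and 94.2%.

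Counts were tested with edgeR 4.0.16 (glmQLFit, glmQLFTest) in R 4.3.3, on all isoacceptors and genes with 10 or more reads over the 3 libraries and all fragments with 10 or more in each, with the 5-class sums as library sizes, no composition factor and Benjamini-Hochberg adjustment (threshold 0.05). The fit had 1 residual degree of freedom, and wild type, with its sole library, was taken to vary as much as Alkbh3-/-. For isoacceptors and fragments the spread was pooled over features (infinite prior degrees of freedom), and for genes the prior was 3.51. The test was tried first on data simulated with the same fixed spread for every feature, so that trial does not show its power on these data. Alternatives were DESeq2 1.42.0, TMM scaling, the sums of the table tested as library sizes, other count filters, the sheets' sums, and each Alkbh3-/- library left out, with edgeR's older quasi-likelihood method added after seeing the data. Intervals are exact Clopper-Pearson at 95%, and a count of 0 is taken to allow up to 3 counts.

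The members and lists were chosen with earlier results of these data known. Named copies have a mean of 100 or more reads, named fragments are the 5 most abundant per tRNA, and isoacceptors named beside them are the nearest in level and the codon relatives. Other copies, fragments and ratios were named after their values were seen.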

Additional observations from a re-analysis of the deposited data

How the results depend on the processing

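The calls on methionine tRNAs did not depend on the settings tried: 0 isoacceptors, copies and fragments of methionine passed as reported and in each alternative that gives a test. The directions did depend on them. The initiator log2 fold change of -0.12 became 0.14 with the sums of the table tested as library sizes, 0.042 with TMM, 0.16 with DESeq2 and 0.022 with the sheets' sums, and ran from -0.40 to 0.060 with 1 Alkbh3-/- library left out, 0.060 being the value without library A. The elongator value of -0.26 became 0.0050 with the table sums and 0.017 with DESeq2, and ran from -0.56 to -0.07. The table sums change the library sizes alone and raised the isoacceptor values by a like amount, Ile-AAT from -0.80 to -0.53 and Trp-CCA from -0.75 to -0.49. The cause of the other changes was not tested. Ile-AAT no longer passed with the table sums (edgeR adjusted p = 0.078), TMM (0.13), DESeq2 (0.48), the older edgeR method (0.064) and the sheets' sums (0.22), and Trp-CCA with the table sums (0.051), DESeq2 (0.48) and the older method (0.064).

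Over all features, DESeq2 called 3 isoacceptors and edgeR's older method 5, against 11. Of all genes, the table sums gave 21 calls, TMM 23 and DESeq2 18, against 36, and of all fragments TMM gave 48, DESeq2 32 and no filter on low counts 4, against 13. The excess of initiator over elongator reads in Alkbh3-/- (ratio minus that of wild type) was 0.107 in the gene table and 0.155 in the sheets, and 0.0969 to 0.118 with 1 library left out. Within 50 nt the second-class difference was -0.413 percentage points in the initiator and -0.00668 in the elongator, where the construction (reads above 50 nt removed) accounts for the change. In the first class alone the elongator difference was 0 points at 30 to 33 nt and -1.15 above 50 nt. No library had first-class elongator reads at 30 to 33 nt, so that 0 was fixed in advance. All but 6, 5 and 10 first-class elongator reads (wild type, A and B) were above 50 nt, which left little room for a difference there. With 1 Alkbh3-/- library left out, the differences of the 30 to 33 nt, above 50 nt and second-class shares kept their signs.

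Among single copies, the same change of library sizes to the table sums turned iMet-CAT-1-1 to 0.11, 1-2 to 0.14, 1-3 to 0.028, 1-6 to 0.12 and 1-7 to 0.19, and Met-CAT-1-1 to 0.21, 2-1 to 0.056, 2-2 to 0.055 and 6-1 to 0.013. DESeq2 turned iMet-CAT-1-1 to 0.0063, 1-2 to 0.042, 1-6 to 0.020 and 1-7 to 0.084, and Met-CAT-1-1 to 0.088. TMM turned iMet-CAT-1-7 to 0.052 and Met-CAT-1-1 to 0.068. With 1 library left out, iMet-CAT-1-1 ran from -0.46 to 0.040, 1-2 from -0.36 to 0.026, 1-5 from -0.23 to 0.25, 1-6 from -0.39 to 0.011 and 1-7 from -0.40 to 0.13, and Met-CAT-1-1 from -0.48 to 0.20.

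Among fragments, the table sums turned the elongator ones of 35 and 31 nt to 0.16 and 0.17 and the 40-nt initiator one to 0.14, and TMM turned the 32-nt elongator one to -0.012. With 1 library left out, the elongator fragments of 35, 31 and 32 nt ran from -0.39 to 0.078, -0.46 to 0.14 and -0.37 to 0.30, and the initiator ones of 31, 40 and 30 nt from -0.044 to 0.16, -0.49 to 0.13 and -0.35 to 0.34. The other named fragments kept their signs, the elongator ones of 54 and 33 nt from -1.43 to -0.75 and 0.14 to 0.58, and the initiator ones of 53 and 39 nt from -1.13 to -0.075 and 0.89 to 1.06. No paired analysis was possible because the wild type group has 1 library and the Alkbh3-/- columns carry no replicate number of the labels.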
